A study of Mus musculus with 20 samples.

Results

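PIM kinases are the 3 genes Pim1, Pim2 and Pim3 of the mouse, and they were followed here as 3 of the 23992 gene symbols measured by RNA-seq. Members were taken by gene symbol, without use of their levels, and each symbol had 1 transcript in the data. Tregs were GFP+ CD4+ cells sorted from B6-Foxp3EGFP mice, in which the reporter marks cells that express Foxp3, and CD8+ T cells were isolated with a selection kit from C57BL/6J mice, whereas the strain label of all libraries reads C57BL/6N. Cells of both kinds came from spleen and lymph node and were left unstimulated (labelled 0 h) or were given 200 nM of IL-2 or of IL-2-REH for 90 min or 4 hr. IL-2-REH is a human IL-2 mutein that binds the common gamma chain less well and acts as a partial agonist. This gave 5 groups of each cell type, with 3 libraries per group for Tregs (15 in all) and a single library per group for CD8+ T cells (5 in all). The labels give no age and do not say which animals a library came from, so p-values measure the spread between these libraries, and no library received medium without cytokine for 90 min or 4 hr, so that time in culture and cytokine cannot be told apart in comparisons with unstimulated cells.

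PIM kinases are serine/threonine kinases that are active as soon as they are made, so that how much PIM kinase a cell contains depends mainly on how much of its mRNA and protein is present. Their genes respond to cytokines that signal through JAK kinases and STAT transcription factors, among them STAT5, the main STAT activated by the IL-2 receptor. In T cells PIM kinases act beside AKT and mTOR in survival and growth, with substrates that include the death promoter BAD, the cell cycle inhibitors p21 and p27, and MYC.

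Pim1 lies on chromosome 17 (GRCm38.p6, chr17:29490785-29496111, plus strand), Pim2 on chromosome X (chrX:7878306-7883432, plus strand) and Pim3 on chromosome 15 (chr15:88862194-88865726, plus strand). Reads were counted on the exons of NM_008842 for Pim1, NM_138606 for Pim2 and NM_145478 for Pim3. The 250 bases before each RefSeq start are shown side by side so that the base composition of the 3 promoters can be compared, with capitals marking CG dinucleotides.
Pim1, chr17:29490535-29490784: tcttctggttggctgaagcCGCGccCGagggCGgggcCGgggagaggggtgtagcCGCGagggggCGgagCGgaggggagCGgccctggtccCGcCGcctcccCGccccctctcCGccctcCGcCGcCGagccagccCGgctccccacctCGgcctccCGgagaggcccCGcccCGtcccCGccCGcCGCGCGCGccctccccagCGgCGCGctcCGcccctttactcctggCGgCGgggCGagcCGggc
Pim2, chrX:7878056-7878305: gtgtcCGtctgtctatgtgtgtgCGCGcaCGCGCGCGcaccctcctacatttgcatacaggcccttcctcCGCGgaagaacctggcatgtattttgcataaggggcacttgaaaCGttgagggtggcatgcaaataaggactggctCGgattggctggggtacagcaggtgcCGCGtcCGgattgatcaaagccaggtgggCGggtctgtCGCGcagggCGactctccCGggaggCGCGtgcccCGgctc
Pim3, chr15:88861944-88862193: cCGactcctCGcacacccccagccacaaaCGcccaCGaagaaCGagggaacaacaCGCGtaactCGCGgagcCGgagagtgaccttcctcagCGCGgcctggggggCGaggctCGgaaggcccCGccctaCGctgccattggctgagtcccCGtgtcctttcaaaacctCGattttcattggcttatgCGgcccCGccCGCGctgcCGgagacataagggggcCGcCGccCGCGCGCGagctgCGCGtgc

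With the 50 bases after the start included, these windows held 42 CG dinucleotides for Pim1, 31 for Pim2 and 40 for Pim3, against a median of 7 over all 32851 RefSeq promoter windows of the same length. Their GC content was 81.3% for Pim1, 62.7% for Pim2 and 69.0% for Pim3, against a median of 52.7%. A second Pim1 start, for which RefSeq lists another transcript, had 5 CG dinucleotides in its window and a GC content of 49.0%. The pair of half-sites that STAT5 binds, written TTCNNNGAA and reading the same on both strands, occurred 0 times in the 4 windows of the PIM genes, and 8.30% of all windows held it. That these letters are missing from a window of 300 bases says nothing about STAT5 binding elsewhere in the genes.

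Marker genes followed the labels of the cells. Foxp3, the transcription factor that defines Tregs, was between 65.2 and 252 RPKM in Tregs and reached at most 0.999 RPKM in CD8+ libraries, where RPKM is a read count divided by exon length and by the library's total of mapped reads. Cd8a, which encodes a chain of the CD8 coreceptor, was between 103 and 256 RPKM in CD8+ libraries and at most 1.84 RPKM in Tregs. Total reads on genes ran from 20201392 to 63903764 in Tregs and from 38201667 to 45189835 in CD8+ libraries, so that the lowest count of any PIM gene was 707 reads, for Pim3 in a CD8+ library, with an exact 95% Poisson interval of 656 to 761 that covers counting error only. The 3 unstimulated Treg libraries differed in their marker sums. Replicate 1 was lowest in myeloid, NK cell, B cell and erythroid markers, and replicate 3 was by far the highest in erythroid markers. Low sums of myeloid and NK cell markers were shared by the stimulated libraries of replicate 1. Myeloid markers summed to 16.5 RPKM in unstimulated replicate 1 and to 65.6 and 55.6 RPKM in replicates 2 and 3, over the 7 of 8 listed genes that were measured. NK cell markers summed to 0.219, 6.46 and 3.67 RPKM over 3 of 3. B cell markers summed to 2.37, 7.86 and 16.5 RPKM over 5 of 5, erythroid markers to 7.73, 14.6 and 230 RPKM over 5 of 5, and Treg markers to 915, 728 and 717 RPKM over 5 of 5, with no listed gene at 0 reads in these 3 libraries. Some markers of other cells also moved with the comparisons that follow, in directions that differed between lists and replicates. B cell markers fell in all stimulated libraries of replicate 2, and erythroid markers in those of replicates 2 and 3. Elsewhere their direction was mixed. With IL-2-REH at 4 hr B cell markers rose to 4.00 and 17.6 RPKM in replicates 1 and 3. Erythroid markers rose to 20.5 RPKM in replicate 1 with IL-2-REH at 90 min. In replicates 2 and 3 myeloid markers summed to between 22.0 and 39.7 RPKM and NK cell markers to between 1.12 and 4.25 RPKM in all stimulated Treg libraries, below the unstimulated library of the same number, and in replicate 1 they summed to between 9.14 and 15.8 RPKM and between 0.0174 and 0.294 RPKM. Of these 2 lists, 0 of 7 and 0 of 3 genes were called against unstimulated Tregs by the test used below. Only between 0.0933% and 2.27% of all genes were called there, so that 0 calls in lists this short say little. For IL-2 and IL-2-REH, median log2 fold changes of myeloid markers were -0.39 and -0.50 at 90 min, and -1.001 and -0.88 at 4 hr. Those of NK cell markers were -1.03 and -1.26 at 90 min, and -1.11 and -1.67 at 4 hr. Medians of all genes lay between -0.06 and 0.01. Cd14 with IL-2 at 4 hr was at -1.69 (adjusted p of 0.0602 by edgeR). The part of other cells in the PIM results was not tested.

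On the deposited exon lengths, Pim1 was the most abundant PIM mRNA in every library. In unstimulated Tregs its mean RPKM of 243 ± 84.6 (SD, n = 3) ranked 150 among the 10579 genes at 1 RPKM or more, whereas Pim3 ranked 2691 at 20.5 ± 3.15 RPKM and Pim2 ranked 5103 at 9.77 ± 1.42 RPKM. In the unstimulated CD8+ library the order was different, with Pim1 at 57.6 RPKM and rank 700 of 10081 genes, Pim2 at 43.9 RPKM and rank 975, and Pim3 at 9.59 RPKM and rank 4767. Reads of the 3 genes can be told apart, since no run of 50 bases, the length of the reads, was shared between any of their transcripts in GENCODE M21 (0 for each of the 3 pairs of genes). The authors' table gave Pim1 an exon length of 1753 bases, whereas the GENCODE M21 transcript paired with the same RefSeq entry has 2698, and on the longer one its RPKM would be 0.65 times as high. For Pim2 the authors' table gave 2041 bases, and GENCODE M21 has a transcript of 2045 bases that ends where the RefSeq gene does, whereas the one it pairs with the RefSeq entry has 1113, on which the RPKM would be 1.83 times as high. Orders of level between Pim1 and Pim2 therefore depend on the length taken. Exons of a gene on the opposite strand, Gm26885, overlap those of Pim1 in GENCODE M21, and reads of the 2 genes cannot be told apart unless strand was used in counting, which is not given in the sources used here.

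**Figure D1:**
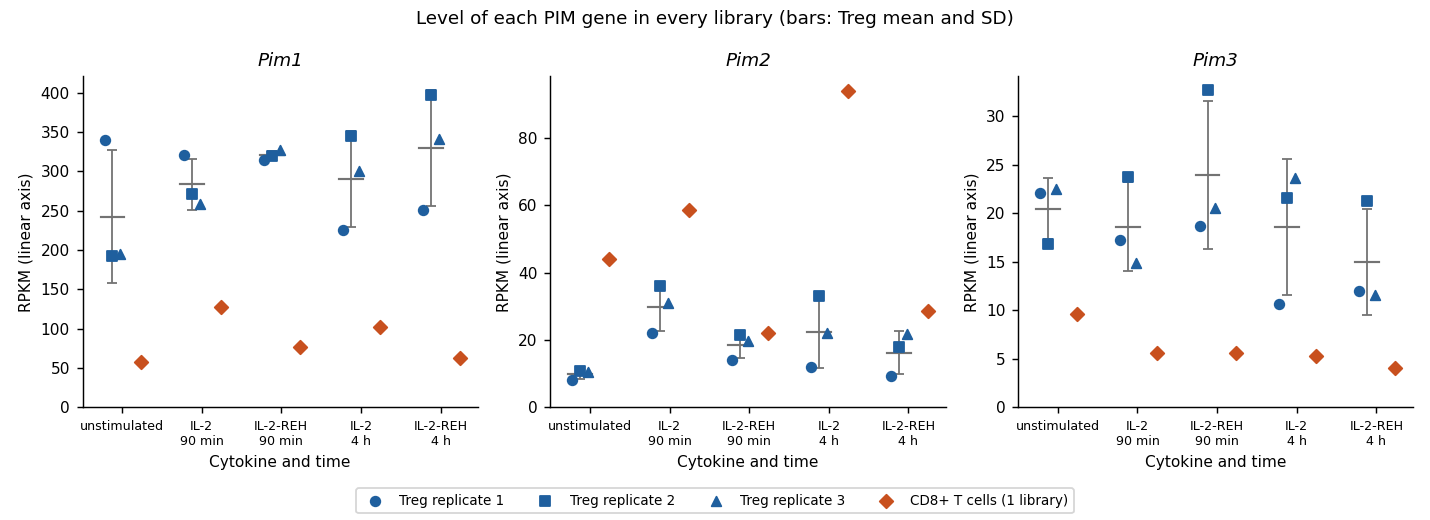
RPKM (linear axes that start at 0) of Pim1, Pim2 and Pim3 in each of the 20 libraries, by cytokine and time. Blue symbols are Treg replicates 1 to 3 with their mean and SD in grey, and orange diamonds are the single CD8+ libraries, which lie below all 3 Treg libraries for Pim1 and Pim3 and above all 3 for Pim2 in every condition.

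Pim2, whose product supports survival and protein synthesis in T cells, rose in Tregs given IL-2 for 90 min. Its RPKM was 8.15, 10.8 and 10.4 in unstimulated replicates 1, 2 and 3 and 22.0, 36.1 and 30.9 after 90 min of IL-2. Every stimulated library was above every unstimulated one. The fold change was 3.44, a log2 fold change of 1.78 ± 0.38 (SE, 95% interval 0.97 to 2.59), with an adjusted p of 0.0426 by edgeR's quasi-likelihood test with Benjamini-Hochberg adjustment over 15009 genes, and the rise was seen in 3 of 3 same-numbered pairs. Pim2 was the 1 PIM gene of 3 that passed the test in this comparison, in which 0.853% of all genes were called, and its p ranked 122 among them. With the replicate number as a block, which called 1.83% of genes, the log2 fold change was 1.69 with an adjusted p of 0.0013. The call was lost without replicate 2 (adjusted p of 1) or replicate 3 (0.849), without unstimulated replicate 2 (0.216) or 3 (0.183), with only the libraries of both groups in the fit (0.0522), and by limma on log2(RPKM + 1) (0.053), whereas the log2 fold change stayed between 1.49 and 1.965 in all 13 alternatives.

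After 4 hr of IL-2, Pim2 was at 11.9, 33.1 and 21.9 RPKM in Treg replicates 1, 2 and 3. All 3 libraries were above the unstimulated ones, and replicate 1 was the closest to them. The log2 fold change was 1.25 ± 0.37 (SE, 95% interval 0.44 to 2.05) with an adjusted p of 0.106 by edgeR's quasi-likelihood test, so that Pim2 was not among the 2.27% of genes called in this comparison. With the replicate number as a block, which called 6.92% of genes, the log2 fold change was 1.14 with an adjusted p of 0.00873 by the same edgeR test. Without replicate 1 the log2 fold change was 1.49 with an adjusted p of 0.00326 by that test. That fit called 1937 of 14477 genes, so that its call says little about Pim2 in particular.

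With IL-2-REH, Pim2 in Tregs had mean levels between those of unstimulated cells and of cells given IL-2 for the same time. RPKM was 14.1, 21.3 and 19.7 after 90 min and 9.33, 17.8 and 21.6 after 4 hr in replicates 1, 2 and 3. At 90 min the 3 libraries lay above all unstimulated libraries and below all libraries given IL-2, and at 4 hr replicate 1 was within the unstimulated range. Against unstimulated cells the log2 fold change was 1.08 ± 0.37 (SE, 95% interval 0.28 to 1.88, adjusted p of 0.393 by edgeR) at 90 min and 0.75 ± 0.37 (SE, 95% interval -0.05 to 1.54, adjusted p of 0.412 by edgeR) at 4 hr, with 0.0933% and 0.313% of genes called in these comparisons. Without replicate 1 these values became 1.24 and 0.98, with adjusted p of 0.00544 and 0.0184 by edgeR. The background rose as well, to 2269 and 1545 of 14477 genes called, so that these calls say little about Pim2 in particular.

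IL-2 differs from IL-2-REH in how well it binds the common gamma chain. Set directly against IL-2, IL-2-REH gave lower Pim2 in 3 of 3 Treg pairs at both times, though hardly in replicate 3 at 4 hr. Pairs 1, 2 and 3 at 4 hr were at -0.32, -0.86 and -0.02 on the log2(RPKM + 1) scale. The log2 difference was -0.70 ± 0.37 (SE, 95% interval -1.49 to 0.09) at 90 min and -0.50 ± 0.37 (SE, 95% interval -1.29 to 0.30) at 4 hr, and adjusted p was 0.9999 and 0.9996 by edgeR's quasi-likelihood test. Few genes were called here at all, 0.0133% at 90 min and 0.0267% at 4 hr, and 0 of the 3 PIM genes were among them. The interval at 90 min holds differences from 2.81-fold lower to slightly higher, so the 2 cytokines were not shown to act alike on Pim2 either.

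In order of mean RPKM, Pim2 in Tregs went from unstimulated cells (9.77 ± 1.42) to IL-2-REH at 4 hr (16.3 ± 6.29), IL-2-REH at 90 min (18.4 ± 3.77), IL-2 at 4 hr (22.3 ± 10.6) and IL-2 at 90 min (29.7 ± 7.11), each with SD and n = 3. The ranges of neighbours in this order overlapped in all 4 cases.

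Pim1, a classical target gene of STAT5, was already high in 1 of the unstimulated Treg libraries. Its RPKM was 340 in unstimulated replicate 1 and 193 and 195 in replicates 2 and 3. With IL-2 it was 321, 271 and 258 after 90 min and 225, 345 and 300 after 4 hr, and with IL-2-REH 315, 320 and 327 after 90 min and 252, 397 and 341 after 4 hr. Replicates 2 and 3 were above their unstimulated libraries under both cytokines at both times, and replicate 1 was not in any of the 4 conditions.

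Over all 15 Treg libraries Pim1 passed the test in none of the 4 comparisons with unstimulated cells. Log2 fold changes were 0.32 ± 0.28 (SE, 95% interval -0.28 to 0.91) for IL-2 and 0.51 ± 0.28 (SE, 95% interval -0.09 to 1.10) for IL-2-REH at 90 min, and 0.28 ± 0.28 (SE, 95% interval -0.31 to 0.88) and 0.40 ± 0.28 (SE, 95% interval -0.19 to 0.99) at 4 hr. Adjusted p ran from 0.494 to 0.646 by edgeR, with 2 of 3 pairs higher in each.

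These values rested on unstimulated replicate 1. Without that 1 library, Pim1 was 0.76 higher on the log2 scale with IL-2 at 90 min (adjusted p of 0.0405 by edgeR), 0.95 with IL-2-REH at 90 min (0.0163), 0.72 with IL-2 at 4 hr (0.063) and 0.84 with IL-2-REH at 4 hr (0.0419). The background rose as well, to 12.9% of genes called for IL-2 at 90 min, 12.1% for IL-2-REH at 90 min and 6.93% for IL-2-REH at 4 hr, so that these calls say little about Pim1 in particular.

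Between IL-2-REH and IL-2, Pim1 in Tregs did not pass the test at either time. At 90 min the libraries with IL-2-REH lay between 315 and 327 RPKM, and of those with IL-2 replicate 1 was within that range and replicates 2 and 3 were below it. At 4 hr all 3 same-numbered pairs were higher with IL-2-REH, by 0.16, 0.20 and 0.18 on the log2(RPKM + 1) scale, while the 2 groups overlapped. The log2 difference in the edgeR fit was 0.19 (95% interval -0.40 to 0.78) at 90 min and 0.11 (95% interval -0.48 to 0.71) at 4 hr, with adjusted p of 0.9999 and 0.9996 by edgeR. These intervals include a Pim1 level with IL-2-REH that is 1.72-fold higher at 90 min. The fit had no term for the replicate number, so its intervals also hold the spread between replicate numbers. With the replicate number as a block, Pim1 was again not called at either time. In order of mean RPKM, Pim1 went from unstimulated cells (243 ± 84.6) to IL-2 at 90 min (283 ± 32.9), IL-2 at 4 hr (290 ± 60.5), IL-2-REH at 90 min (321 ± 5.88) and IL-2-REH at 4 hr (330 ± 73.5), each with SD and n = 3, and the ranges of all neighbours overlapped.

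Pim3, whose product is closer in sequence to that of Pim1 than to that of Pim2, showed no change that passed the test in Tregs. Its RPKM was 22.1, 16.8 and 22.5 in unstimulated replicates 1, 2 and 3, and at 90 min 17.3, 23.7 and 14.9 under IL-2 and 18.7, 32.7 and 20.5 under IL-2-REH. At 4 hr it was 10.6, 21.5 and 23.7 under IL-2 and 12.05, 21.3 and 11.6 under the mutein. The groups overlapped throughout, and their means lay between 14.99 ± 5.48 RPKM for IL-2-REH at 4 hr and 23.96 ± 7.61 RPKM for IL-2-REH at 90 min (SD, n = 3).

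Against unstimulated cells the log2 fold change of Pim3 was -0.01 for IL-2 and 0.36 for IL-2-REH at 90 min, and -0.09 and -0.49 at 4 hr, with adjusted p from 0.584 to 0.993 by edgeR. Between the cytokines it was 0.37 (95% interval -0.37 to 1.11) at 90 min and -0.41 (95% interval -1.15 to 0.34) at 4 hr. Its lowest p belonged to IL-2-REH at 4 hr against 90 min, a log2 difference of -0.85 ± 0.35 (SE, 95% interval -1.59 to -0.10) with all 3 pairs lower and an adjusted p of 0.302 by edgeR.

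**Figure D2:**
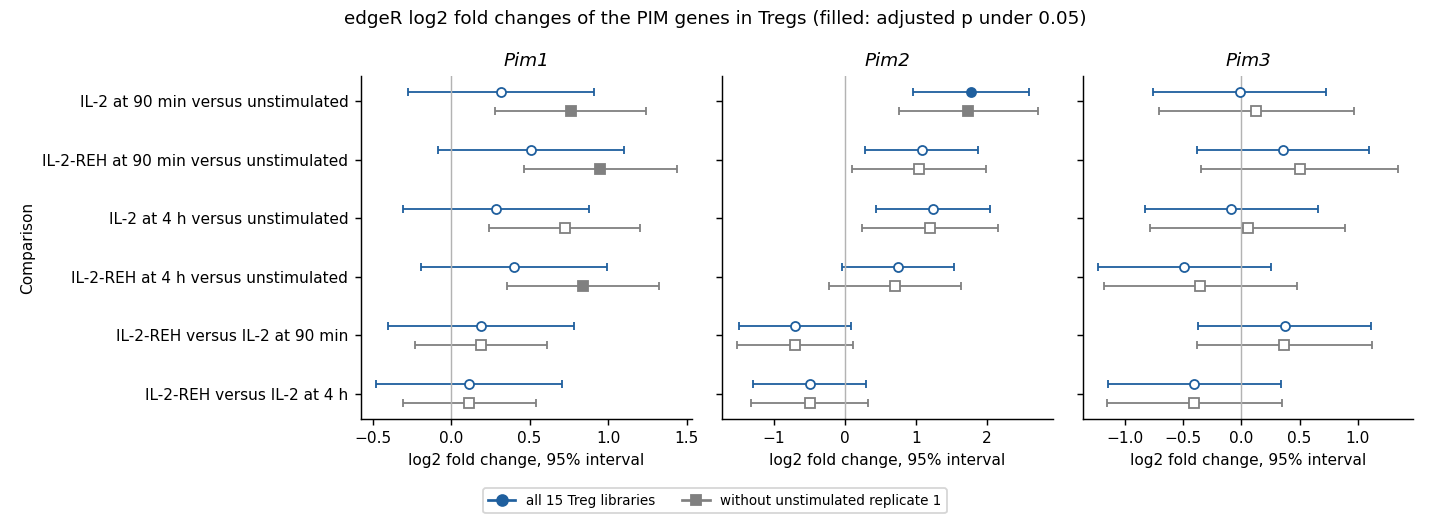
Log2 fold change (x axis) and 95% interval of Pim1, Pim2 and Pim3 in Tregs for 6 comparisons (y axis), from edgeR with all 15 libraries (blue circles) and without unstimulated replicate 1 (grey squares). Filled symbols have an adjusted p under 0.05, which holds with all libraries for Pim2 at 90 min of IL-2 alone, and without that library also for Pim1 in 3 comparisons.

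From 90 min to 4 hr, 0% of the 15009 genes were called with either cytokine by edgeR, with 2551 genes at an unadjusted p under 0.05 for IL-2 and 2188 for IL-2-REH, while DESeq2 called 383 and 253. For Pim2 the log2 change over this time was -0.54 (95% interval -1.33 to 0.26) with IL-2 and -0.33 (95% interval -1.12 to 0.46) with IL-2-REH, and for Pim1 it was -0.03 and -0.11. Whether the difference between the cytokines itself changed from 90 min to 4 hr was tested as an interaction, in which again 0% of genes were called (47 at an unadjusted p under 0.05, and 0 by DESeq2). The estimates were -0.08 for Pim1, 0.20 for Pim2 and -0.78 for Pim3 on the log2 scale, all with an adjusted p of 1 by edgeR.

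CD8+ T cells had 1 library per condition, so that differences in them have no replicate check and no test. Pim2 was at 43.9 RPKM in the unstimulated library, 58.7 (IL-2) and 22.0 (IL-2-REH) at 90 min, and 93.9 (IL-2) and 28.6 (IL-2-REH) at 4 hr. Both libraries with IL-2 were above the unstimulated one, and both with IL-2-REH were below it. All differences from unstimulated CD8+ cells rest on that 1 library, which stood apart from the 4 others in its markers. T cell markers summed to 751 RPKM in it and to between 411 and 486 RPKM in the others, Treg markers to 28.3 against 12.55 to 15.05 RPKM, myeloid markers to 35.5 against 16.2 to 22.1 RPKM, NK cell markers to 11.03 against 4.57 to 6.90 RPKM and B cell markers to 10.7 against 3.29 to 5.34 RPKM, with no listed gene at 0 reads. Their part in the PIM values was not tested, and the comparison of the 2 cytokines with each other does not use this library. On the log2(RPKM + 1) scale, which understates the change of low genes, Pim2 differed from the unstimulated library by 0.41 and 1.08 with IL-2 at 90 min and 4 hr, and by -0.97 and -0.60 with IL-2-REH.

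Pim2 set the 2 cytokines apart by more than most genes did in CD8+ T cells. It was lower with IL-2-REH than with IL-2 by a log2 ratio of -1.37 at 90 min, the 31st lowest of 10021 genes, and of -1.68 at 4 hr, the 46th lowest. An absolute log2 ratio above 1, a 2-fold difference, was reached by 0.868% of genes at 90 min and 2.23% at 4 hr, and by Pim2 as 1 PIM gene of 3 at both times.

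Pim1 in CD8+ T cells was at 57.6 RPKM without cytokine, 128 (IL-2) and 77.2 (IL-2-REH) at 90 min, and 102 (IL-2) and 63.1 (IL-2-REH) at 4 hr. All 4 stimulated libraries were above the unstimulated one, those with IL-2 by more. The log2 ratio to the unstimulated library was 1.13 with IL-2 at 90 min, which made Pim1 the 1 PIM gene of 3 past a 2-fold difference there, against 7.24% of all genes, and 0.82 with IL-2 at 4 hr. With IL-2-REH it was 0.42 and 0.13. The library with IL-2-REH was below that with IL-2 by a log2 ratio of -0.72 at 90 min and of -0.69 at 4 hr.

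For Pim3 the CD8+ values were 9.59 RPKM without cytokine, 5.63 (IL-2) and 5.65 (IL-2-REH) at 90 min, and 5.25 and 4.04 at 4 hr. The unstimulated library was the highest of the 5. The largest difference was a log2 ratio of -1.07 for IL-2-REH at 4 hr, where 6.11% of genes passed a 2-fold difference. With IL-2 at 4 hr, 4.71% of genes and Pim2 passed it, and with IL-2-REH at 90 min 8.57% of genes and 0 of the 3 PIM genes.

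The 2 cell types are set side by side here without a test, since a single CD8+ pair has no spread. In same-numbered Treg pairs, Pim2 with IL-2-REH at 90 min was 0.73, 0.92 and 0.86 above the unstimulated library on the log2(RPKM + 1) scale, whereas the CD8+ pair was at -0.97. Opposite signs of this kind, higher in all 3 Treg pairs and lower in CD8+ T cells, were seen for 3.48% of the 9669 genes expressed in both. At 4 hr the Treg pairs were at 0.18, 0.67 and 0.995 and the CD8+ pair at -0.60, a pattern of 4.79% of genes.

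From 90 min to 4 hr of IL-2, Pim2 was lower in all 3 Treg pairs (-0.84, -0.12 and -0.48) and higher in CD8+ T cells (0.67), as were 3.34% of genes. For Pim1, IL-2-REH against IL-2 at 4 hr gave 0.16, 0.20 and 0.18 in Treg pairs and -0.69 in CD8+ T cells, a pattern of 6.31% of genes. Within pairs, the median of all genes was not at 0 but between -0.28 and 0.18 in Tregs and between -0.12 and 0.08 in CD8+ T cells, so that small ratios are to be read against that shift. Whether these differences exceed the spread between CD8+ libraries was not tested.

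**Figure D3:**
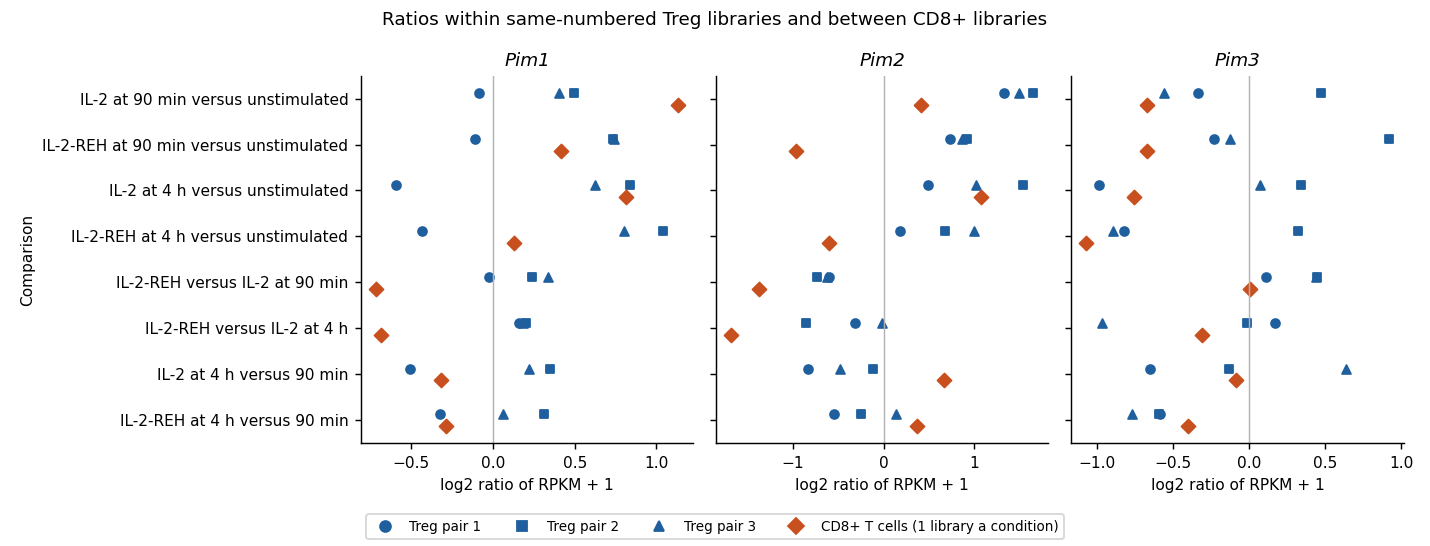
Log2 ratio of RPKM + 1 (x axis) for 8 comparisons (y axis), in same-numbered Treg pairs (blue, 1 symbol per replicate number) and in the single CD8+ pair (orange diamonds). For Pim2 the 2 comparisons of IL-2-REH with unstimulated cells lie right of 0 in all 3 Treg pairs and left of 0 in CD8+ T cells.

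Between the cell types, Pim1 and Pim3 were higher in Tregs and Pim2 was higher in CD8+ T cells in all 5 conditions. The single CD8+ value of Pim1 and Pim3 lay below the lowest of the 3 Treg libraries in each condition, which held for 11% of the 9669 genes expressed in both, and that of Pim2 lay above the highest, as for 7.59% of genes. Mean Pim1 in Tregs was 4.21 times the CD8+ value without cytokine 2.22 and 2.84 times it with IL-2 at 90 min and 4 hr, and 4.15 and 5.23 times it with IL-2-REH. For Pim3 these ratios were 2.13 without cytokine, 3.31 and 3.55 with IL-2, and 4.24 and 3.71 with IL-2-REH. Pim2 in Tregs was 0.222 times the CD8+ value without cytokine, at 90 min 0.506 times with IL-2 and 0.835 times with the mutein, and 0.238 and 0.568 times at 4 hr. With IL-2-REH at 90 min the CD8+ value of 22.0 RPKM was just above the highest Treg value of 21.3. Isolation (sorting for GFP or a kit) and mouse strain differed with the cell type and cannot be told apart from it.

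Pim1 made up between 81.9% and 92.2% of the summed PIM RPKM in Treg libraries, and between 50.8% and 73.6% in CD8+ libraries. Pim2 made up 2.20% to 10.9% in Tregs and 20.99% to 46.6% in CD8+ T cells, and Pim3 3.10% to 9.87% and 2.61% to 8.63%. The shares of Pim2 and Pim3 overlapped in Tregs, while Pim2 was second to Pim1 in every CD8+ library on the deposited lengths. These shares depend on exon length, which was examined in 2 comparisons added after the data had been seen. With Pim1 alone on its longer length of GENCODE M21, it made up 74.7% to 88.4% in Tregs and 40.1% to 64.5% in CD8+ T cells, where Pim2 then exceeded Pim1 in the unstimulated library and in that with IL-2 at 4 hr, leaving Pim1 first in 3 of 5. With all 3 genes on the GENCODE transcripts paired with their RefSeq entries, Pim1 made up 66.2% to 85.7% in Tregs and 27.2% to 52.2% in CD8+ T cells, and Pim2 exceeded Pim1 in 4 of 5 CD8+ libraries, all but that with IL-2-REH at 90 min, and in 0 of 15 Treg libraries. The summed PIM level was 273 ± 84.7 RPKM in unstimulated Tregs (SD, n = 3) and 111 RPKM in the unstimulated CD8+ library, and reached 201 RPKM there with IL-2 at 4 hr.

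**Figure D4:**
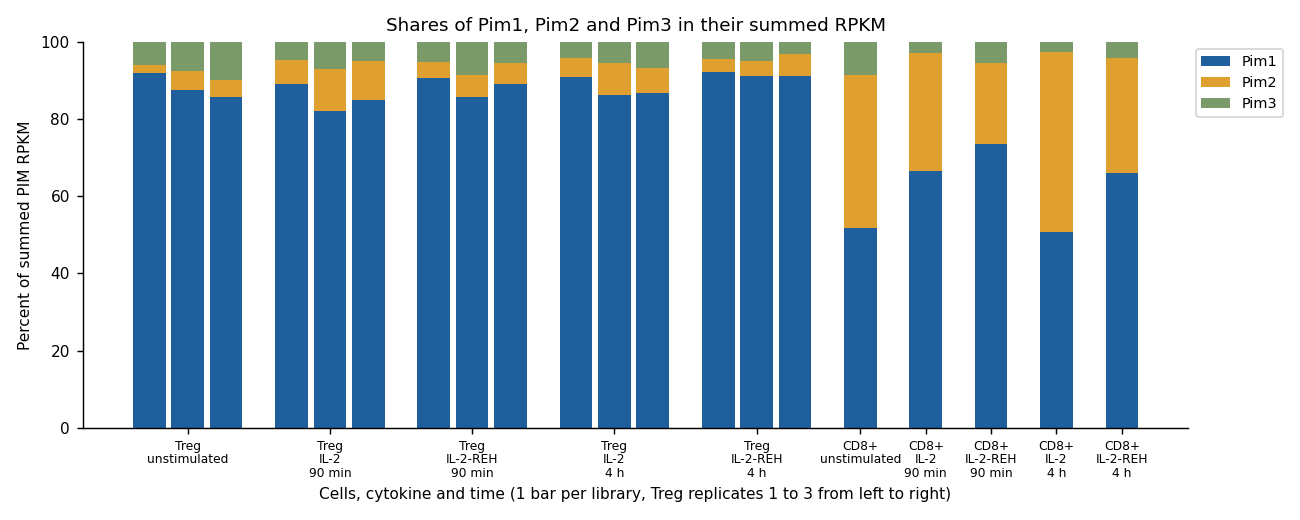
Percent of the summed RPKM of the 3 PIM genes (y axis, 0 to 100) that Pim1 (blue), Pim2 (yellow) and Pim3 (green) took in each of 20 libraries, 1 bar per library. Pim1 takes 81.9% or more of every Treg bar, and the Pim2 part is 20.99% or more of every CD8+ bar.

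The genes most like each PIM gene across the 15 Treg libraries differed between the 3, as measured by Pearson's r of log2(RPKM + 1) over 10472 genes at a mean of 1 RPKM or more. These correlations describe libraries that share groups and replicate numbers. For Pim2 they were Ncf1, which encodes a subunit of the NADPH oxidase (r = 0.93, Spearman's rho = 0.89), Furin, a proprotein convertase (r = 0.92, rho = 0.91), and Myc (r = 0.92, rho = 0.92). For Pim1 they were Ube2z, a ubiquitin-conjugating enzyme (r = 0.94, rho = 0.88), Gadd45b, a stress-induced gene (r = 0.93, rho = 0.80), and Zbtb46 (r = 0.93, rho = 0.89), a zinc finger transcription factor. For Pim3 they were Fam53c (r = 0.86, rho = 0.73), Rab10os (r = 0.85, rho = 0.78) and Ier5, an immediate early gene (r = 0.84, rho = 0.89). The PIM genes resembled each other less, with r = 0.39 for Pim1 and Pim2, 0.28 for Pim1 and Pim3, and 0.25 for Pim2 and Pim3.

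Gadd45b showed the same standing of unstimulated replicate 1 as Pim1, at 219 RPKM there against 35.4 and 48.1 RPKM in replicates 2 and 3. Since Gadd45b was picked for its likeness to Pim1 over these same libraries, this is not a separate observation. After 90 min of IL-2-REH it was at 232, 311 and 216 RPKM. The value in unstimulated replicate 1 was within the range of the stimulated libraries, and those in replicates 2 and 3 were below it.

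Myc, whose product PIM kinases stabilize, was also low with IL-2-REH in CD8+ T cells. Its RPKM was 39.4 without cytokine, 32.3 (IL-2) and 8.98 (IL-2-REH) at 90 min, and 70.0 and 10.8 at 4 hr. Both values with IL-2-REH were below the unstimulated library and the highest was with IL-2 at 4 hr, the same order at 4 hr as for Pim2. In Tregs Myc went from 26.1 ± 10.4 RPKM without cytokine to 98.1 ± 47.3 RPKM with IL-2 at 90 min (SD, n = 3), with a log2 fold change of 2.13 ± 0.48 (SE) and an adjusted p of 0.0606 by edgeR.

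Among 7 genes of the IL-2 receptor and its signal (receptor chains, JAK1, JAK3 and both STAT5 genes), Il2ra alone was called in Tregs in these 6 comparisons, with IL-2 at 4 hr (log2 fold change 1.15 ± 0.27 SE, adjusted p of 0.0407 by edgeR). In that comparison 2.27% of all genes were called, and in the others between 0.0133% and 0.853%. At an unadjusted p under 0.05 by edgeR were 2 of the 7 genes with IL-2 at 90 min and 4 with IL-2 at 4 hr. Of all 15009 genes, 2068 and 2657 were. With IL-2-REH it was 1 of 7 at each time against unstimulated cells, where 1704 and 1998 of 15009 genes were. That gene was Jak3, which was lower, with log2 fold changes of -0.76 at 90 min and -1.52 at 4 hr. The medians of this list were 0.48 and 0.46 with IL-2 at 90 min and 4 hr, against -0.06 and 0.00 over all genes tested. In the unstimulated CD8+ library Il2ra, the alpha chain that raises affinity for IL-2, was at 1.58 RPKM, against 90.5 ± 27.4 RPKM in unstimulated Tregs (SD, n = 3).

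Of 20 target genes of STAT5 and IL-2, a list that also holds Il2ra, 3 were called higher in Tregs with IL-2 at 90 min, against 0.78% of all genes, and 5 at 4 hr, against 1.17%, with 0 lower at either time. Those at 90 min were Cish (log2 fold change 2.12 ± 0.19 SE, adjusted p of 7.6e-05 by edgeR), Socs1 (2.28 ± 0.38 SE, 0.0111) and Socs2 (1.74 ± 0.28 SE, 0.00762), which encode feedback inhibitors of cytokine signals. At 4 hr these 3 were called again, with Il2ra and with Cdk6, a kinase of the cell cycle (1.16 ± 0.25 SE, adjusted p of 0.029 by edgeR). With IL-2-REH 1 of 20 rose at 90 min, Cish by 1.10 ± 0.18 SE (adjusted p of 0.0345 by edgeR), against 0.0933% of all genes, and 0 of 20 at 4 hr, against 0.16%, with 5 and 9 of the 20 at an unadjusted p under 0.05. Of all 15009 genes, 1704 and 1998 were at an unadjusted p under 0.05 by edgeR there. The list's medians were 0.78 and 0.86 with IL-2 at 90 min and 4 hr, where the medians of all genes were -0.06 and 0.00, and 0.33 and 0.11 with IL-2-REH, where they were -0.05 and 0.01. In CD8+ T cells 13 of the 20 were more than 2-fold lower with IL-2-REH than with IL-2 at 90 min and 14 of 20 at 4 hr, with 0 higher, where 0.808% and 1.68% of all genes were lower by as much.

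Of 24 substrates and partners of PIM kinases, 2 rose with IL-2 at both times in Tregs, where 0.78% and 1.17% of all genes did. These were Socs1, which is also in the previous list, and Myb, a transcription factor of haematopoietic cells. The log2 fold change of Myb was 1.64 ± 0.28 SE (adjusted p of 0.012 by edgeR) at 90 min and 1.51 ± 0.28 SE (0.0143) at 4 hr. With IL-2-REH 0 of 24 were called at 90 min and at 4 hr, where only 0.0933% and 0.313% of all genes were. At an unadjusted p under 0.05 by edgeR were 4 of 24 at each time with IL-2-REH, against 7 and 9 with IL-2. Of all 15009 genes, 1704 and 1998 were with IL-2-REH, and 2068 and 2657 with IL-2. With IL-2-REH at 4 hr the 2 with the lowest p, Socs1 and Nfatc1, had log2 fold changes of 1.31 and -0.98. The list's median stood between 0.00 and 0.09 in the 4 comparisons with unstimulated cells, and that of all genes between -0.06 and 0.01. Bad, Cdkn1a and Cdkn1b, which encode BAD, p21 and p27, were not among the genes called. Of 13 kinases and regulators of the AKT and mTOR pathway, 0 were called in any of the 6 comparisons in Tregs. Between 0.0133% and 2.27% of all genes were called in these comparisons. For IL-2 at 90 min and 4 hr, 2 and 3 of the 13 were at an unadjusted p under 0.05 by edgeR, as were 2068 and 2657 of all 15009 genes. Medians of the 13 were 0.12 and 0.15 there.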

How the data were processed

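RNA-seq of 20 libraries was analysed. The authors mapped 50-base single reads to mm10 with Bowtie2 2.2.6 and TopHat2 2.1.1 (versions per the labels), kept unique reads and deposited read counts on the exons of RefSeq transcripts and the RPKM of each. Of 31682 transcripts, that with most reads stood for each symbol. The PIM genes, the gene lists and the rules for naming genes were chosen with earlier results of these data known. Counts of 15 Treg libraries were fitted with edgeR 4.0.16 (TMM, filterByExpr, glmQLFit, 1 mean per group without a replicate block, 15009 genes). P-values were adjusted by Benjamini-Hochberg, with calls at 0.05. The edgeR step was tested on simulated data. CD8+ T cells were described by log2(RPKM + 1). Genes like a member were the 3 with the highest r, and from each list at most 4 called genes, or else 2, with the lowest p could be named, while Bad, Cdkn1a, Cdkn1b and Il2ra in CD8+ T cells were named after their values were seen. DESeq2 1.42.0, limma 3.58.1 (on RPKM), other filters and leaving out libraries were alternatives. Promoters were RefSeq windows of GRCm38.p6, found for 3 of 3 PIM genes. No protein sequence was used here. Same-numbered Treg libraries of different groups deviated together from their group means (30 pairs, lowest r 0.12, mean 0.54, against a mean of -0.26 for 60 other pairs), so the replicate number, given in the labels, was taken to pair them.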

Additional observations from a re-analysis of the deposited data

Results flagged for a closer look

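Over 8 comparisons of each of the 3 PIM genes, the single CD8+ pair of libraries moved opposite to all 3 Treg pairs in 4 cases. This difference between the cell types was not tested. In the order given here, the same pattern in the same directions was seen for 3.48%, 4.79%, 3.34% and 6.31% of the 9669 genes expressed in both. Genes with both signs reversed would also have counted as cases and are not in these shares, so the shares understate how common such cases were. For Pim2 the log2 ratio of RPKM + 1 in CD8+ T cells was -0.97 with IL-2-REH at 90 min and -0.60 with IL-2-REH at 4 hr, both against the unstimulated library, while every Treg pair was above 0. For Pim2 with IL-2 at 4 hr against 90 min it was 0.67, while every Treg pair was below 0. For Pim1 with IL-2-REH against IL-2 at 4 hr it was -0.69, while every Treg pair was above 0. Each CD8+ ratio rests on 2 libraries, and the comparisons with unstimulated cells use the unstimulated CD8+ library that stood apart in its markers.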

How the results depend on the processing

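Of the 351 values that alternatives gave for the 27 Treg comparisons of the PIM genes, 314 kept the direction and the side of the threshold of the value reported, 12 passed the threshold where it had not been passed, 7 lost it and 18 changed sign, none of them a called value. Causes were not tested. Pim2 with IL-2 at 90 min lost its call by limma on log2(RPKM + 1) (1.49) and on log2(RPKM + 0.1) (1.57) and with only the groups compared in the fit (1.77), and without single libraries or replicates ranged from 1.59 to 1.965. Pim2 with IL-2 at 4 hr gained a call with the replicate block (1.14) and by DESeq2 (1.25), and the block changed no other call of a PIM gene, though it moved the genes called there from 341 to 1038. Leaving out replicates or unstimulated libraries, Pim2 ranged from 0.94 to 1.49 with IL-2 at 4 hr, from 0.94 to 1.24 with IL-2-REH at 90 min and from 0.49 to 0.98 at 4 hr, each gaining a call without replicate 1. The fit without replicate 1 called 1937, 2269 and 1545 of 14477 genes in these comparisons. Pim1 ranged from 0.10 to 0.76 with IL-2 and from 0.26 to 1.02 with IL-2-REH at 90 min, and from 0.019 to 0.86 and from 0.090 to 0.99 at 4 hr, gaining calls without replicate 1 in all 4. Further values that did not pass the test changed sign when replicates were left out. These were Pim3 with IL-2 at 90 min (-0.45 to 0.25), with IL-2 at 4 hr (-0.31 to 0.32), with IL-2-REH at 90 min (-0.14 to 0.69), with IL-2-REH against IL-2 at 4 hr (-0.65 to 0.0038) and with IL-2 at 4 hr against 90 min (-0.40 to 0.14), Pim1 with IL-2 at 4 hr against 90 min (-0.093 to 0.11), and the change of the cytokine difference over time for Pim1 (-0.14 to 0.012) and Pim2 (-0.055 to 0.43). Pim1 at 4 hr against 90 min was 0.019 with IL-2 by both limma fits (0.026 with only the groups compared) and 0.016 with IL-2-REH by both limma fits. Over the same alternatives, the number of genes called ran from 0 to 2509 for IL-2 at 90 min, from 0 to 2269 for IL-2-REH at 90 min, from 3 to 1937 for IL-2 at 4 hr, from 0 to 1545 for IL-2-REH at 4 hr, from 0 to 13 and from 0 to 56 between the cytokines at 90 min and 4 hr, from 0 to 625 and from 0 to 574 over time with IL-2 and IL-2-REH, and was 0 for the interaction.

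In CD8+ T cells 60 of 72 values for the PIM genes moved by less than counting error and 12 moved by more. Centred on the median gene, Pim1 was at 0.54 with IL-2-REH at 90 min and 0.89 with IL-2 at 4 hr, -0.65 and -0.77 for IL-2-REH against IL-2 at 90 min and 4 hr, and -0.26 and -0.35 for 4 hr against 90 min of IL-2 and IL-2-REH. Pim2 was then at -0.84 with IL-2-REH at 90 min, 1.15 with IL-2 at 4 hr, -1.31 and -1.76 for IL-2-REH against IL-2, and 0.73 for IL-2 at 4 hr against 90 min. With a pseudocount of 0.1, Pim3 with IL-2-REH at 4 hr was at -1.23. The number of genes past the fold limit ran from 49 to 1211 for IL-2 and from 56 to 1363 for IL-2-REH at 90 min, from 54 to 759 and from 60 to 1048 at 4 hr, and from 7 to 147 and from 29 to 371 between the cytokines. On the GENCODE length of Pim1, an alternative added after the data had been seen, its mean share of the summed PIM RPKM was 83.1% in Tregs and 51.5% in CD8+ T cells, against 88.3% and 61.7%. With all 3 genes on the GENCODE lengths paired with their RefSeq entries, added likewise, it was 77.9% and 38.6%. With 3 Treg libraries in a group a change of 1 on the log2 scale in Pim2 or Pim3 was within the 95% interval of most comparisons, and with 1 CD8+ library no spread is known.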
